A study of Mus musculus with 23 samples.

Results

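Genes for the light chains, kinase and binding proteins of skeletal muscle myosin were followed in mouse muscle through nerve loss and in animals labelled as knockout or knockdown for the transcription factors PAX4 and NRF1. They were listed by gene name, with earlier results of these data known. All 10 were found among the 54446 genes of the count table and among the 15624 genes of a second table. The members were the essential light chains Myl1, Myl3, Myl4 and Myl6b, the regulatory light chains Mylpf and Myl2, the light chain kinase Mylk2, and the binding proteins Mybpc1, Mybpc2 and Mybph. Bulk RNA was sequenced from skeletal muscle, and the series title places the study with the transcription factors that control proteasome genes. The first set held raw counts for denervated PAX4 KO muscle, denervated WT muscle and innervated WT muscle, with 3 libraries each. The second set held muscle from NRF1-PAX4 double KD mice, labelled NRF1PAL-PAX4 (3 libraries), NRF1 KD mice, labelled NRF1PAL (3 libraries), and WT con mice (libraries 2 and 3). All 3 groups of the second set were denervated, so it held no innervated reference. Every denervated library analysed here was taken at 10 d after denervation. The labels give no strain, age, sex or muscle, nor how the KO and KD animals were made, and do not say that libraries came from separate animals, so p-values measure only the spread between these libraries.

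Myosin, the motor of the sarcomere, is built of heavy chains that each carry an essential and a regulatory light chain on the lever arm. Fast fibres use Myl1 and Mylpf for these places, slow fibres and the cardiac ventricle use Myl3 and Myl2, and developing muscle and the cardiac atrium use Myl4. Mylk2, the skeletal myosin light chain kinase, phosphorylates the regulatory light chain when calcium and calmodulin rise, which strengthens the twitch of fast fibres. Myosin-binding proteins C lie across the thick filament in the C zone of the sarcomere, with Mybpc1 the slow and Mybpc2 the fast skeletal isoform, and Mybph, myosin-binding protein H, is a shorter relative of them.

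The promoters of 3 of the 4 genes that changed with denervation are shown, 2 of genes that rose and 1 of a gene that fell. Each runs from 250 bases before to 50 bases after the start of the gene in RefSeq (GRCm38.p6), 5′ to 3′ on the strand of the gene, and capitals mark E-boxes (CANNTG), the letters that myogenic factors of the MyoD family bind. A match is a description of letters and not a binding site.
Mybph, chr1:134193198-134193497, plus strand: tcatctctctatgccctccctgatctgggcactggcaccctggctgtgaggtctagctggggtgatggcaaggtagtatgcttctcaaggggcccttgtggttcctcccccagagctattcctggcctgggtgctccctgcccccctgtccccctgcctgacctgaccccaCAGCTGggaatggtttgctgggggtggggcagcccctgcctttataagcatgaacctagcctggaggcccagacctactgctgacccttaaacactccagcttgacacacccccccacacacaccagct
Myl4, chr11:104550413-104550712, plus strand: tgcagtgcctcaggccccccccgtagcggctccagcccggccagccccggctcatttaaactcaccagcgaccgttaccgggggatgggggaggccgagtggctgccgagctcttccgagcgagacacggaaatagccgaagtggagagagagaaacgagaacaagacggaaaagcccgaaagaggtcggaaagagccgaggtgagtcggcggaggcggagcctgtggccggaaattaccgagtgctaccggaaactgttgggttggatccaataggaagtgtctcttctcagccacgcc
Mybpc2, chr7:44524620-44524919, minus strand: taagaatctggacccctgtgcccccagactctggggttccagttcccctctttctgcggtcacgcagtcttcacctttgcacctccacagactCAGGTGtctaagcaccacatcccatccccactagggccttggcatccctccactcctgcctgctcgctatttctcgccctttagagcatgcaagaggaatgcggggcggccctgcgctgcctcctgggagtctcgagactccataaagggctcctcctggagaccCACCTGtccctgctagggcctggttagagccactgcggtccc
The E-box reads the same on both strands, and 72.3% of all 32851 promoters of this length held at least 1. The Mybph window held 1, starting at -79 from the gene start. The Mybpc2 window held 2, at -157 and 8, and the Myl4 window held 0. Promoters were found for 9 of the 10 genes, all but Mylk2, and each of the other 6 held at least 1 E-box. Searched on both strands, the NRF1 site was in none of the windows of the 9 genes, and 1.27% of all promoters held it. The MEF2 site, held by 3.19% of all promoters, was also in none, and the CArG box, held by 1.63%, was in the Myl3 window.

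Library totals were 21716216 to 42821396 counts in the first set, and 23740769 to 30165765 reads were recovered in the second. In the first set Pax4 was at 0 counts in each of the 9 libraries, so it does not check the KO label. Nrf1 had 476 to 524 normalised counts in NRF1 KD libraries, against 444 and 488 in WT con libraries, so its RNA was not lower and goes against the label. These libraries are called NRF1 KD as labelled. In double KD libraries Nrf1 had 427 to 454 normalised counts, which overlapped WT con, so its RNA does not bear out that label either. Innervated WT library 2 stood apart: Chrng, the fetal acetylcholine receptor subunit that denervated fibres switch on, had 15.9 CPM there against 0.197 and 0.104 in the other 2 innervated libraries and 84.4 to 155 in denervated WT libraries. Denervated WT library 1 also stood apart, with 255 CPM of Trim63, an atrophy-linked ubiquitin ligase, where denervated WT libraries 2 and 3 had 630 and 607 CPM. Both libraries were picked out by genes tied to denervation or atrophy. Larger fold changes without them therefore follow in part from that choice and are no separate support. The defining markers of skeletal muscle fibres were present, with all 10 listed genes detected in every library and a summed level of 56940 to 105784 CPM.

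Levels were compared between genes as CPM per kilobase of exon, where CPM are counts scaled to a common total at TMM-adjusted library sizes. The length is that of all annotated exons of a gene merged, 1062 bases for Mylpf, 2044 for Myl3 and 4637 for Myl4. Transcripts in use can be shorter, so the order between genes depends in part on this length. The fast light chains were far above the rest in every group of the first set. Mylpf averaged 7648 ± 686 CPM per kilobase in denervated PAX4 KO, 7863 ± 703 in denervated WT and 9459 ± 894 in innervated WT muscle (SD, n = 3 each), and ranked 9, 11 and 14 among 54409 genes. Myl1 followed with 3998 ± 700, 4839 ± 512 and 5271 ± 788 CPM per kilobase in the same groups. The 10 genes together held 2.14% to 2.51% of all counts in each library.

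The order below those light chains differed between innervated and denervated muscle. In innervated WT muscle it ran Mybpc2 (757 ± 235 CPM per kilobase), Mybpc1 (542 ± 24.3), Mylk2 (409 ± 123), Myl3 (65.7 ± 26.1), Mybph (21.8 ± 9.98), Myl4 (2.90 ± 2.82), Myl6b (2.79 ± 0.896) and Myl2 (1.67 ± 1.46). The ranges over libraries of Mybpc2 and Mybpc1, of Mybpc1 and Mylk2, of Myl4 and Myl6b, and of Myl6b and Myl2 overlapped. Within each innervated library Mybpc1 was nevertheless above Mylk2, and Myl6b above Myl2. The order of Mybpc2 and Mybpc1, and that of Myl4 and Myl6b, differed from library to library. In denervated WT muscle Mybpc1 (603 ± 50.4 CPM per kilobase) came next after Myl1, followed by Mybph (132 ± 30.0), Mybpc2 (88.2 ± 26.9), Myl3 (46.3 ± 14.3), Mylk2 (32.5 ± 8.15), Myl4 (25.9 ± 4.80), Myl6b (4.71 ± 1.10) and Myl2 (0.699 ± 0.337). There the neighbours Mybph and Mybpc2, Myl3 and Mylk2, and Mylk2 and Myl4 overlapped. The order in denervated PAX4 KO muscle was that of denervated WT muscle, with Mybpc2 overlapping Myl3 and Mylk2 overlapping Myl4.

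**Figure D1:**
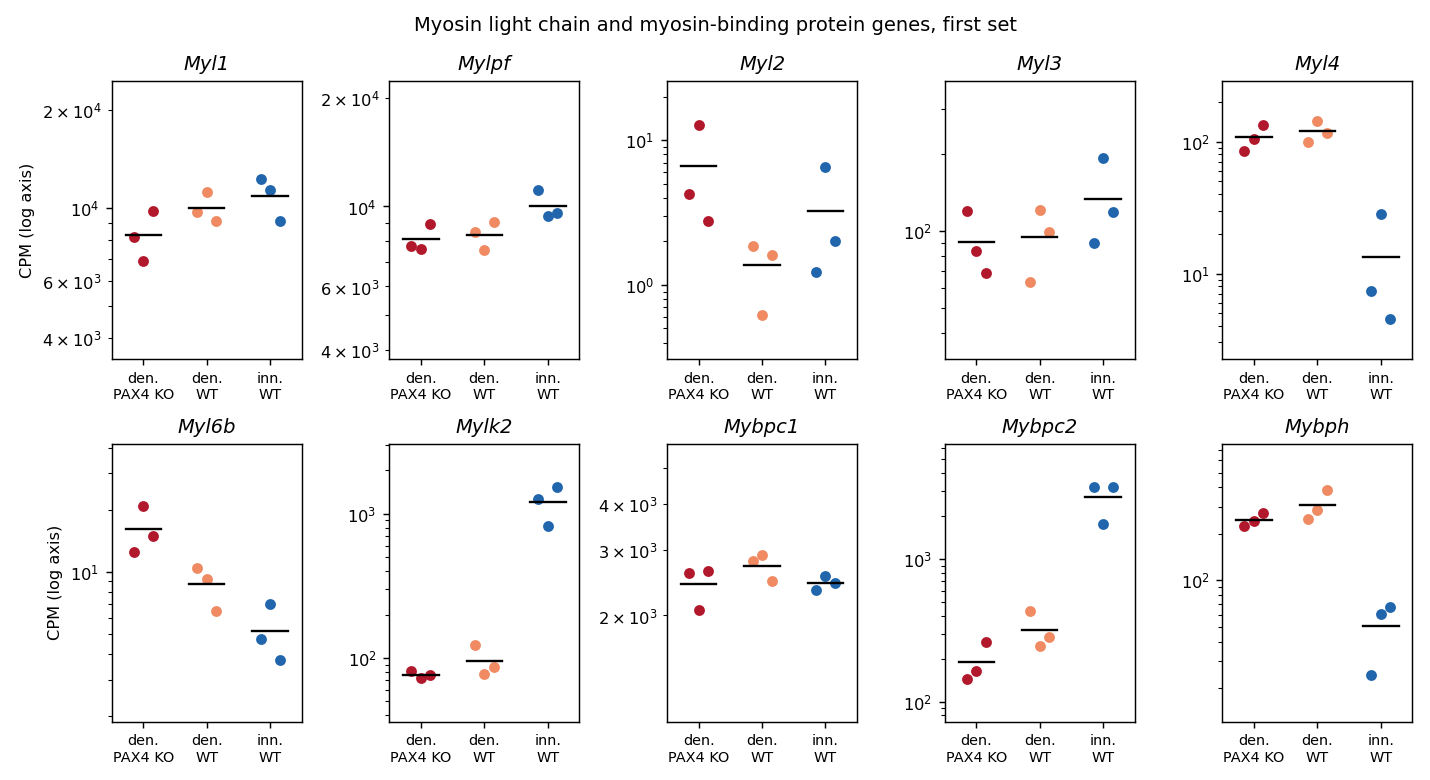
CPM of the 10 genes in each library of the first set, on a log axis of its own for each gene; points are libraries, bars are means, and den. and inn. stand for denervated and innervated. Mylk2 and Mybpc2 lie lower and Myl4 and Mybph higher in all 6 denervated libraries than in the 3 innervated libraries, while Myl1, Mylpf and Mybpc1 stay within a narrow band.

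Denervation of WT muscle moved 4 of the 10 genes, 2 in each direction. The kinase gene Mylk2 and the fast binding protein gene Mybpc2 fell, and the embryonic light chain gene Myl4 and the binding protein gene Mybph rose. Each changed by at least 6.01-fold, while the main light chains of fast fibres and slow Mybpc1 did not pass the test. Called means an adjusted p under 0.05 over all 16146 genes tested in edgeR, and 32.3% of all genes were called in this comparison (16.5% higher, 15.8% lower), so the share of members called was near that background. For 5 of the 10 genes the libraries of the groups did not overlap, as for 46.6% of all genes. The 4 calls held under each of 20 alternatives. With library totals alone in place of TMM scaling 4 members were higher and 2 lower, and over all genes 5483 were higher and 1048 lower, in place of 2660 and 2549. The median log2 fold change was -0.20 over the members and 0.02 over all genes. The summed level of 7 slow fibre genes was 531 to 572 CPM in denervated WT, against 136 to 297 CPM in innervated WT libraries. Summed macrophage markers were 392 to 798 CPM in denervated WT, against 102 to 329 CPM in innervated WT libraries, with 7 of 8 genes higher. Of those 7 only C1qa was called without denervated WT library 1, whose sum was the highest of its group, and 1 gene was called without innervated WT library 1. With denervated library 1 and innervated library 2 both left out, 7 were higher. In bulk RNA, a change in the number of cells of a type and a change in RNA per cell cannot be told apart, and the part of either list in the members' levels was not tested.

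Mylk2 (chr2:152911352-152923068, plus strand, GRCm38) had 123, 77.5 and 86.8 CPM in denervated WT libraries 1 to 3, against 1272, 818 and 1532 CPM in innervated WT libraries. The groups did not overlap, with every innervated library far above every denervated one. The level was 12.6-fold lower with denervation (log2 fold change -3.66 ± 0.26 SE, adjusted p = 5.96e-05, edgeR). Its rank per kilobase was 1000 in denervated WT and 81 in innervated WT muscle.

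Mybpc2 (chr7:44501699-44524656, minus strand), whose promoter is printed above, had 429, 245 and 282 CPM in denervated WT libraries, against 3225, 1753 and 3221 CPM in innervated WT libraries. Again no library of one group reached the other. The log2 fold change was -3.10 ± 0.33 (8.58-fold lower, adjusted p = 0.000245, edgeR). Leaving out innervated library 2 and denervated library 1 together gave -4.09 for Mylk2 and -3.61 for Mybpc2 on the log2 scale.

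Myl4 (chr11:104550663-104595753, plus strand) had 99.9, 144 and 116 CPM in denervated WT libraries, against 7.38, 28.5 and 4.50 CPM in innervated WT libraries. The groups did not overlap, and innervated library 2, which had the raised Chrng, was the highest of its group. Myl4 was 8.81-fold higher with denervation (log2 fold change 3.14 ± 0.55, adjusted p = 0.00232, edgeR), and without innervated library 2 the log2 fold change was 4.35 (adjusted p = 2.64e-05, edgeR). Of 6 cardiac markers, listed because the cardiac atrium also uses Myl4, 3 could be tested: Tnnt2 was higher (22.9 ± 1.92 CPM in denervated WT and 4.64 ± 4.21 CPM in innervated WT muscle), Myh6 was lower and Tnni3 was not called. Between 1 and 3 of the 6 were at 0 in each library.

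Mybph (chr1:134193448-134201232, plus strand) had 250, 285 and 384 CPM in denervated WT libraries, against 24.3, 60.7 and 67.5 CPM in innervated WT libraries. Every denervated library was above every innervated one. The rise was 6.01-fold (log2 fold change 2.59 ± 0.33, adjusted p = 0.000482, edgeR). Of its 2329 exon bases, 1162 overlap the antisense gene Adora1. The counting is not stated to use strand, so reads from these shared bases cannot be told apart. Adora1 itself had 2.66 to 3.85 CPM in denervated WT libraries, against 0.767 to 1.32 CPM in innervated WT libraries. Per kilobase of exon, Adora1 was counted at 0.459 to 0.665 CPM in denervated WT libraries, where Mybph had 107 to 165.

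The other 6 genes were not called. Mylpf averaged 8351 ± 746 CPM in denervated WT and 10046 ± 950 CPM in innervated WT muscle (SD, n = 3 each), and although the libraries did not overlap its log2 fold change of -0.27 ± 0.16 had an adjusted p of 0.242 in edgeR. Myl1 averaged 10037 ± 1062 and 10933 ± 1634 CPM in the same order of groups, a log2 fold change of -0.12 ± 0.20. Mybpc1 averaged 2728 ± 228 CPM in denervated WT and 2452 ± 110 CPM in innervated WT muscle, a log2 fold change of 0.15 ± 0.15. The slow fibre light chains were not called either. Myl3 had 63.3 to 121 CPM in denervated WT and 90.1 to 194 CPM in innervated WT libraries (log2 fold change -0.50 ± 0.31), which turned to 0.08 without innervated library 2 and denervated library 1. With denervated and innervated WT libraries blocked by the number in their column names, Myl3 was called (-0.47, adjusted p = 0.029, edgeR). Myl2 had 0.615 to 1.85 CPM in denervated WT and 1.23 to 6.52 CPM in innervated WT libraries, the 6.52 in innervated library 2 (log2 fold change -1.28 ± 0.71). Without that library the log2 fold change of Myl2 was -0.26, and with no filter on low counts Myl2 was called (adjusted p = 0.0309, edgeR; 0.0309 to 0.799 over the alternatives). Myl6b, an essential light chain of slow and non-muscle myosin, had 10.4, 9.25 and 6.43 CPM in denervated WT libraries, against 4.73, 6.99 and 3.76 CPM in innervated WT libraries. One innervated library lay above the lowest denervated one, and the log2 fold change of 0.74 ± 0.27 had an adjusted p of 0.0588 in edgeR, falling under 0.05 in 8 of 20 alternatives. Among single libraries, it was 0.0185 without innervated WT library 2, 0.0386 without denervated WT library 3 and 0.0434 without denervated PAX4 KO library 2. With WT libraries blocked by number as for Myl3, the adjusted p of Myl6b was 0.013 in edgeR. In the authors' deposited table for denervated against innervated muscle its adjusted p was 0.0467.

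**Figure D2:**
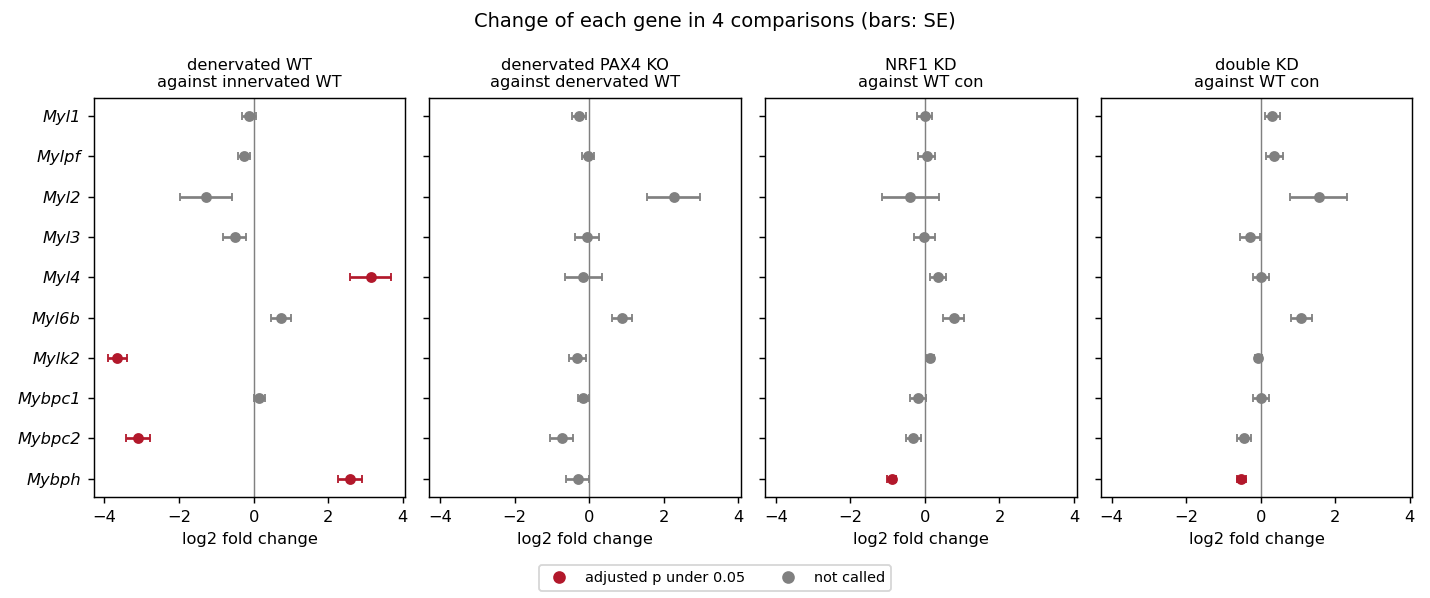
Log2 fold change of each gene with its SE in 4 comparisons (first group over second); red marks an adjusted p under 0.05 in edgeR (2 left panels) or limma (2 right panels). The 4 genes called with denervation lie at -3.66, -3.10, 2.59 and 3.14, and the only gene called in the knockdowns is Mybph.

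In pairs of genes that code for alternative forms of the same part, the balance was read within each library. Mybpc2 made up 16.1%, 9.55% and 12.5% of Mybpc1 and Mybpc2 together, per exon length, in denervated WT libraries, against 63.3%, 46.2% and 62.2% in innervated WT libraries. In denervated PAX4 KO libraries the share was 6.50%, 9.09% and 11.1%. The mean share was 12.7% ± 3.27 in denervated WT and 57.2% ± 9.60 in innervated WT muscle (SD, n = 3 each), a difference of -44.5 percentage points with a two-sided exact permutation p of 0.1, the smallest that 3 against 3 libraries allow. The groups did not overlap, and a share within a library does not depend on how libraries are scaled. The slow essential light chain Myl3 made up 0.944% ± 0.250 of Myl1 and Myl3 in denervated WT and 1.25% ± 0.480 in innervated WT muscle (exact permutation p = 0.4, n = 3 each). Myl2 was 0.00871% ± 0.00385 of Mylpf and Myl2 in denervated WT and 0.0184% ± 0.0170 in innervated WT muscle (exact permutation p = 0.5, n = 3 each). In the second set, where every library was denervated, the Mybpc2 share was 22.0%, 10.2% and 11.8% in double KD, 15.4%, 18.1% and 17.6% in NRF1 KD, and 15.8% and 21.1% in WT con libraries.

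**Figure D3:**
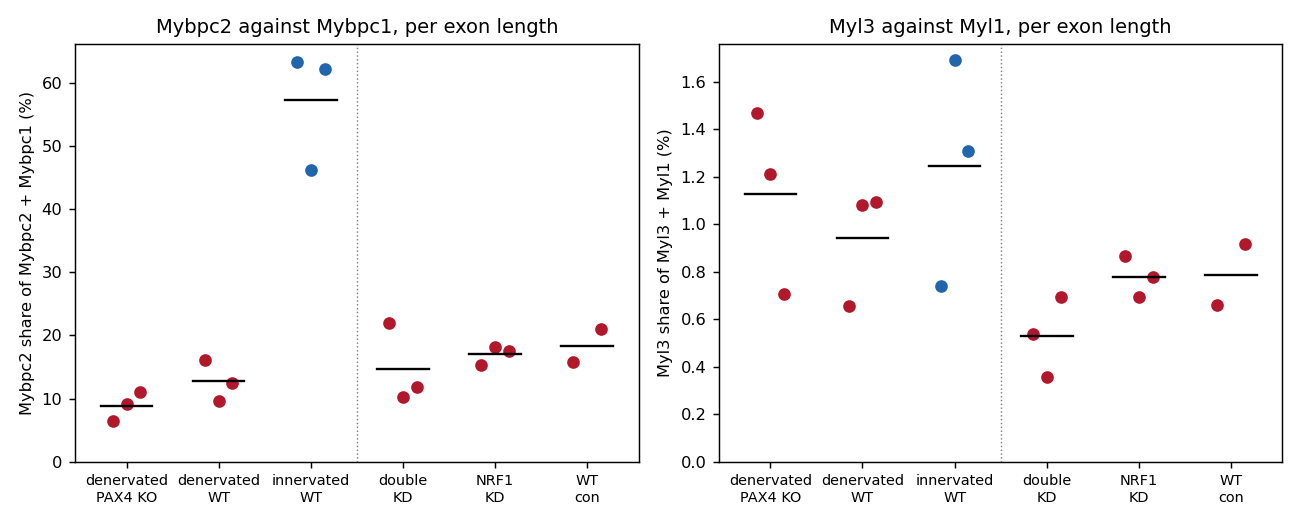
Share of Mybpc2 in Mybpc1 and Mybpc2 (left) and of Myl3 in Myl1 and Myl3 (right), in percent per exon length; points are libraries, bars are means, blue marks innervated muscle, and the dotted line separates the 2 sets. The 14 denervated libraries lie between 6.50% and 22.0% for Mybpc2, below the 3 innervated libraries at 46.2% to 63.3%.

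Denervated muscle labelled PAX4 KO gave no call among the 10 genes against denervated WT muscle. Only 0.0186% of all genes were called in edgeR (3 of 16146), and DESeq2 and limma-voom also called 0 members; 3 of the 10 had an unadjusted p under 0.05, against 12.9% of all genes. Those 3 were Myl2, Myl6b and Mybpc2, and for Myl2 and Myl6b the libraries did not overlap, as for 16.9% of all genes. Myl2 had 4.28, 12.8 and 2.78 CPM in denervated PAX4 KO libraries, against 1.85, 0.615 and 1.62 CPM in denervated WT libraries, from 114 to 353 counts and from 22 to 77 counts. The groups did not overlap but PAX4 KO library 2 was far above the others (log2 fold change 2.26 ± 0.71, adjusted p = 0.299, edgeR). Myl6b had 12.5, 20.9 and 14.9 CPM in denervated PAX4 KO libraries, against 10.4, 9.25 and 6.43 CPM in denervated WT libraries, again with no overlap (log2 fold change 0.89 ± 0.26, adjusted p = 0.290, edgeR).

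Mybpc2 had 144, 165 and 263 CPM in denervated PAX4 KO libraries, against 429, 245 and 282 CPM in denervated WT libraries. PAX4 KO library 3 lay within the WT range, and the log2 fold change of -0.74 ± 0.31 had an adjusted p of 0.365 in edgeR. With no filter on low counts, Myl2 and Myl6b were called (adjusted p = 0.00211 and 0.0144, edgeR), with 456 calls over all genes. The other 7 members had log2 fold changes of -0.32 to -0.04 in this comparison. PAX4 KO library 2, highest for both Myl2 and Myl6b, also had the highest summed macrophage markers (1257 CPM over 8 genes, with 712 and 896 CPM in the other 2 PAX4 KO libraries and 392 to 798 CPM in denervated WT libraries). Summed satellite cell markers were 19.3 to 30.4 CPM in PAX4 KO, with library 2 the highest, against 14.4 to 17.4 CPM in denervated WT libraries. The summed slow fibre genes were 638 to 727 CPM in PAX4 KO, against 531 to 572 CPM in denervated WT libraries, and the summed fast fibre genes 31212 to 44044 CPM, against 44874 to 57971 CPM. The libraries of the 2 groups did not overlap for these 3 sums. Gene by gene, edgeR called 0 of 8 macrophage, 0 of 4 satellite cell, 0 of 7 slow fibre and 0 of 9 fast fibre genes. Their median log2 fold changes were 0.88, -0.04, 0.44 and -0.50 in that order. The satellite cell sum was thus higher without a rise in the median gene of its list. The part of any of the 4 lists in the members' levels was not tested.

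Against innervated WT muscle, denervated PAX4 KO muscle had 3 members higher and 2 lower, where 40.0% of all genes were called (21.8% higher, 18.2% lower). For 6 of the 10 genes the libraries did not overlap, as for 52.3% of all genes. This comparison shares its innervated libraries with the one in WT muscle, so the values are given side by side. Mylk2 averaged 76.9 ± 4.78 CPM in denervated PAX4 KO and 1207 ± 362 CPM in innervated WT muscle (15.7-fold lower, log2 fold change -3.97 ± 0.26, adjusted p = 2.4e-05, edgeR). Mybpc2 averaged 191 ± 63.3 and 2733 ± 849 CPM in these groups (14.3-fold lower, adjusted p = 7.29e-05, edgeR). Myl4 and Mybph had log2 fold changes of 2.98 ± 0.55 and 2.28 ± 0.33 here, beside 3.14 and 2.59 in WT muscle, and Myl4 had 4.20 without innervated library 2. Myl6b was also higher, at 16.1 ± 4.31 CPM in denervated PAX4 KO and 5.16 ± 1.66 CPM in innervated WT muscle (3.10-fold, adjusted p = 0.00139, edgeR), while the direct comparison of the denervated groups did not pass the test. Myl2, not called here, was called without innervated library 2 (log2 fold change 2.00, adjusted p = 0.0446, edgeR; 0.0446 to 0.933 over the alternatives). DESeq2 called 3 members higher and 4 lower, and 3379 genes higher and 3266 lower over all 16146 tested. The added members were the fast light chains Myl1 (log2 fold change -0.43, adjusted p = 0.0284, DESeq2) and Mylpf (-0.34, adjusted p = 0.018, DESeq2). Their log2 fold changes turned to 0.07 and 0.17 with library totals alone.

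In the second set, Mybph was lower in libraries labelled NRF1 KD and in libraries labelled double KD than in WT con libraries, and no other member was called. The values are normalised counts, that is reads divided by the authors' size factors. Mybph had 13102, 11125 and 11426 in NRF1 KD libraries, against 23782 and 20318 in WT con libraries. The groups did not overlap, and the log2 fold change was -0.89 ± 0.12 (1.85-fold lower, adjusted p = 0.00326, limma), where 11.9% of all genes were called in limma (7.92% higher, 4.01% lower). The libraries of these groups did not overlap for 2 of the 10 genes and for 46.6% of all genes. In the authors' deposited table the log2 fold change of Mybph was -0.89 with an adjusted p of 1.7e-10. Summed macrophage markers were 16973 to 34774 normalised counts in NRF1 KD, against 7383 and 9615 in WT con libraries, with 8 of 8 genes higher, and 13180 to 20743 in double KD libraries, with 1 of 8 higher; their part in the Mybph level was not tested. Adora1, the antisense neighbour of Mybph, had 24.0 to 26.8 normalised counts in NRF1 KD and 20.4 and 26.1 in WT con libraries.

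In double KD libraries Mybph had 15495, 14523 and 16100 normalised counts, again below both WT con libraries. The log2 fold change was -0.52 ± 0.12 (1.43-fold lower, adjusted p = 0.0374, limma), and 4.41% of all genes were called in limma (2.54% higher, 1.87% lower). The libraries did not overlap for 4 of the 10 genes, Mybph, Myl6b, Myl1 and Mylpf, and for 36.2% of all genes. This call was less stable: Mybph was called in 9 of 18 alternatives here, and in 17 of 18 for NRF1 KD, where it failed the added demand of a log2 fold change of at least 1. The double KD call was lost without NRF1 KD library 2 or 3, without double KD library 1, 2 or 3, and without WT con library 2, with adjusted p of 0.0344 to 0.271 over the alternatives. Both knockdown groups share the WT con libraries. Set directly against NRF1 KD, double KD had all 3 libraries above the 3 of NRF1 KD for Mybph, with a log2 fold change of 0.37 ± 0.10 and an adjusted p of 0.203 in limma. In that comparison limma called 0.140% of all genes (0.0803% higher, 0.0602% lower) and 0 members. Of the 10 members, Myl2 and Mybph had an unadjusted p under 0.05 in limma, against 11.4% of all genes. With edgeR on the recovered reads 0 members were called as well. The libraries did not overlap for 4 of the 10 genes and for 16.4% of all genes.

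The other 9 members were not called in the second set. Myl6b had 683, 1287 and 613 normalised counts in double KD, 735, 719 and 529 in NRF1 KD, and 332 and 438 in WT con libraries. All 6 knockdown libraries were above both controls, but the log2 fold changes of 1.09 ± 0.29 for double KD and 0.78 ± 0.29 for NRF1 KD had adjusted p of 0.0594 and 0.107 in limma. The authors' deposited table gave Myl6b adjusted p of 0.00152 and 0.0409 for these comparisons. Without double KD library 2, NRF1 KD gave Myl6b an adjusted p of 0.0322, and without double KD library 3, double KD gave it 0.0487, both in limma.

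Myl2 was the most variable member, with 343, 3234 and 761 normalised counts in double KD, 230, 462 and 135 in NRF1 KD, and 355 and 290 in WT con libraries. Double KD library 2 was far above every other, and no comparison was called. That library also had the highest summed slow fibre genes, at 36136 normalised counts over 6 genes. The other libraries of the second set had 17886 to 26871. The part of these genes in the Myl2 level was not tested. Myl4 and Mylk2, which had the largest changes with denervation, were within 0.36 of 0 on the log2 scale in both knockdowns against WT con. Myl1 had 299831 to 332935 normalised counts in double KD, against 236678 and 278691 in WT con libraries, and Mylpf had 363496 to 467703 against 310836 and 325284. The double KD libraries lay above both controls for these fast light chains, with log2 fold changes of 0.31 ± 0.20 and 0.36 ± 0.23 that were not called. Mybpc2 had 9284 to 14822 normalised counts in double KD and 10777 to 14450 in NRF1 KD, against 13952 and 16946 in WT con libraries, with log2 fold changes of -0.44 ± 0.19 and -0.31 ± 0.19 that were not called. Mybpc1 and Myl3 overlapped between all 3 groups.

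**Figure D4:**
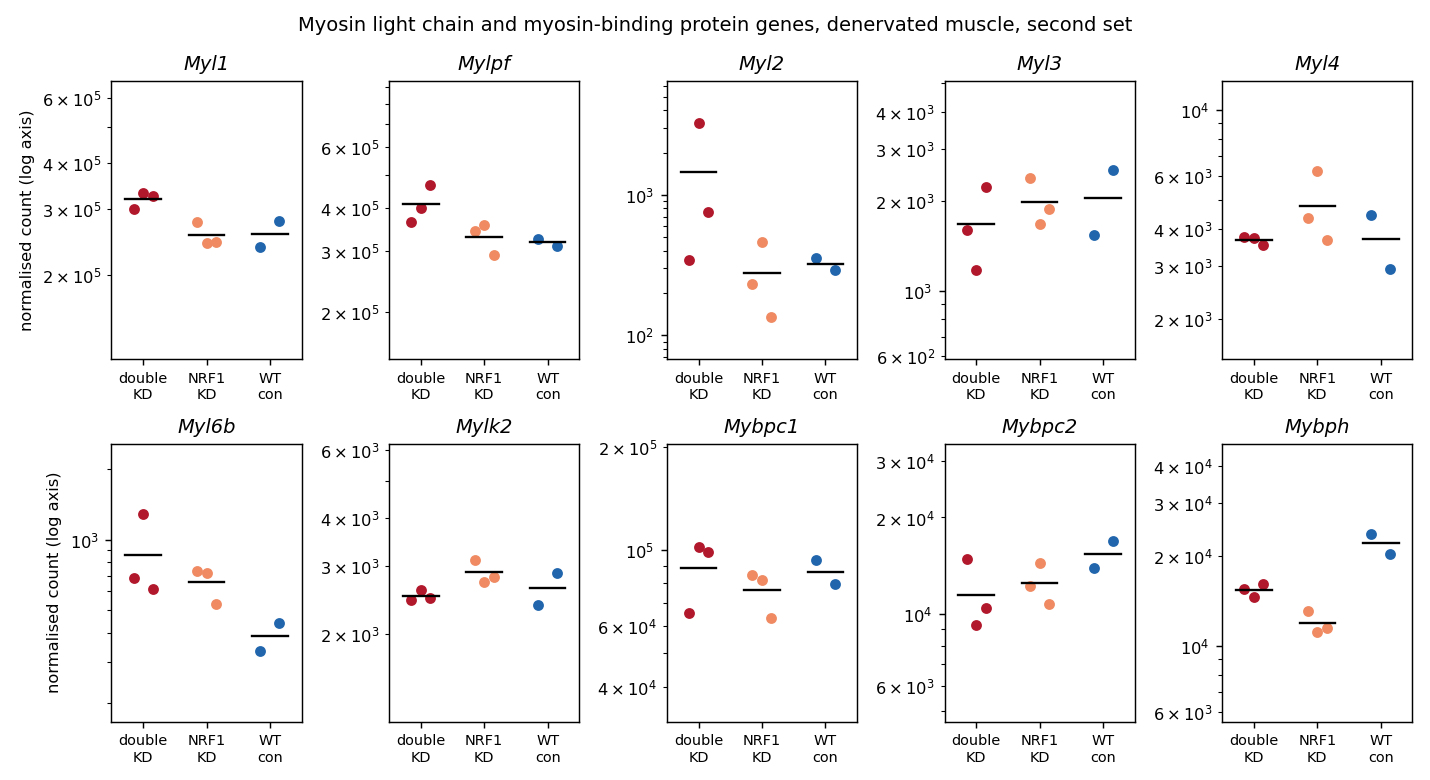
Normalised counts of the 10 genes in each library of the second set, all denervated, on a log axis of its own for each gene; points are libraries and bars are means. Mybph lies at 11125 to 16100 in the 6 knockdown libraries, below the WT con libraries at 20318 and 23782, and 1 double KD library stands apart for Myl2 at 3234.

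The partners of these proteins changed in both directions with denervation of WT muscle. Of 14 genes of the thick filament and M-band, 4 were higher and 6 lower (median log2 fold change -0.43, beside 0.02 over all genes). Myom3, an M-band protein of intermediate and slow fibres, was 9.97-fold higher (327 ± 72.7 CPM in denervated WT and 32.6 ± 33.2 CPM in innervated WT muscle, adjusted p = 0.00222, edgeR), and 26.6-fold higher without innervated library 2 and denervated library 1. Myh2, the heavy chain of type IIa fibres, was 2.97-fold higher. The embryonic and perinatal heavy chains Myh3 and Myh8 made up the 4, named after their values were seen. Myh3 was 11.1-fold higher, and 96.9-fold higher without the same 2 libraries. Myh1, the type IIx heavy chain, fell to 3061 ± 720 CPM in denervated WT, against 7359 ± 1531 CPM in innervated WT muscle (log2 fold change -1.27 ± 0.22, adjusted p = 0.00223, edgeR). Smyd1, a methyltransferase that supports myosin assembly, had a log2 fold change of -0.66 ± 0.13. The Myh8 call (1.91-fold) was lost without denervated WT library 1 or innervated WT library 1. Without innervated library 2, 4 genes of the list were higher and 8 lower, without innervated library 1 3 were higher and 4 lower, and with library totals alone 5 were higher and 4 lower.

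Among 12 genes of light chain phosphorylation and calcium binding, 2 were higher and 5 lower (median log2 fold change -0.41). The other muscle kinase of the family, Mylk4, fell with Mylk2, to 165 ± 31.2 CPM in denervated WT, against 1249 ± 358 CPM in innervated WT muscle (log2 fold change -2.92 ± 0.26, adjusted p = 0.000116, edgeR). Calm2 was the second lower gene named by rule, and Calm3, like it a calmodulin gene, Mylk, the smooth muscle kinase, and Ppp1cb, a catalytic subunit of myosin phosphatase, were named after their values were seen. Calm2 had a log2 fold change of -0.63 ± 0.12. Dapk3, a kinase of regulatory light chains, was 1.99-fold higher and Ppp1r12a, the targeting subunit of myosin phosphatase, 1.35-fold higher, a call lost without denervated WT library 2 or innervated WT library 1. With library totals alone in place of TMM scaling, 2 genes of this list were higher and 2 lower. In PAX4 KO against denervated WT muscle no gene of either list was called in edgeR, while Mylk4, Ppp1cb and Unc45b had an unadjusted p under 0.05. Mylk4 had 85.9 ± 17.2 CPM in denervated PAX4 KO and 165 ± 31.2 CPM in denervated WT muscle (log2 fold change -0.94 ± 0.24, adjusted p = 0.264, edgeR), and was called in 2 of 19 alternatives.

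With NRF1 KD against WT con, 1 of 13 tested thick filament genes was higher and 1 lower. Myh8 had 2313 ± 189 normalised counts in NRF1 KD and 1393 ± 409 in WT con libraries (SD, n = 3 and 2, log2 fold change 0.76 ± 0.21, adjusted p = 0.0404, limma). Unc45b, the chaperone that folds the myosin head, had 5819 ± 352 and 7774 ± 413 in these groups (log2 fold change -0.42 ± 0.10, adjusted p = 0.0291, limma). Of 11 tested genes of phosphorylation and calcium binding, Ppp1r12c and Rock1 rose, and Mylk4 fell. Mylk4 had a log2 fold change of -0.71 ± 0.18 there, while Mylk2 had one of 0.14 ± 0.11 and was not called. These calls rested on few libraries: over 18 alternatives they held in 12 for Myh8, 11 for Unc45b, 13 for Ppp1r12c, 10 for Rock1 and 14 for Mylk4. Each of the 5 was lost without NRF1 KD library 3 and without at least 1 of the WT con libraries. Leaving out NRF1 KD library 2 also ended all 5 calls, leaving out NRF1 KD library 1 ended those of Myh8 and Rock1, and leaving out double KD library 2 ended those of Unc45b and Rock1. With double KD against WT con, Myh8 was 2.02-fold higher (2810 ± 627 and 1393 ± 409 normalised counts, adjusted p = 0.0272, limma), a call lost without double KD library 3 or WT con library 3. Of the 11 genes of phosphorylation and calcium binding limma called 0 there, and 4 had an unadjusted p under 0.05, against 22% of all genes.

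**Figure D5:**
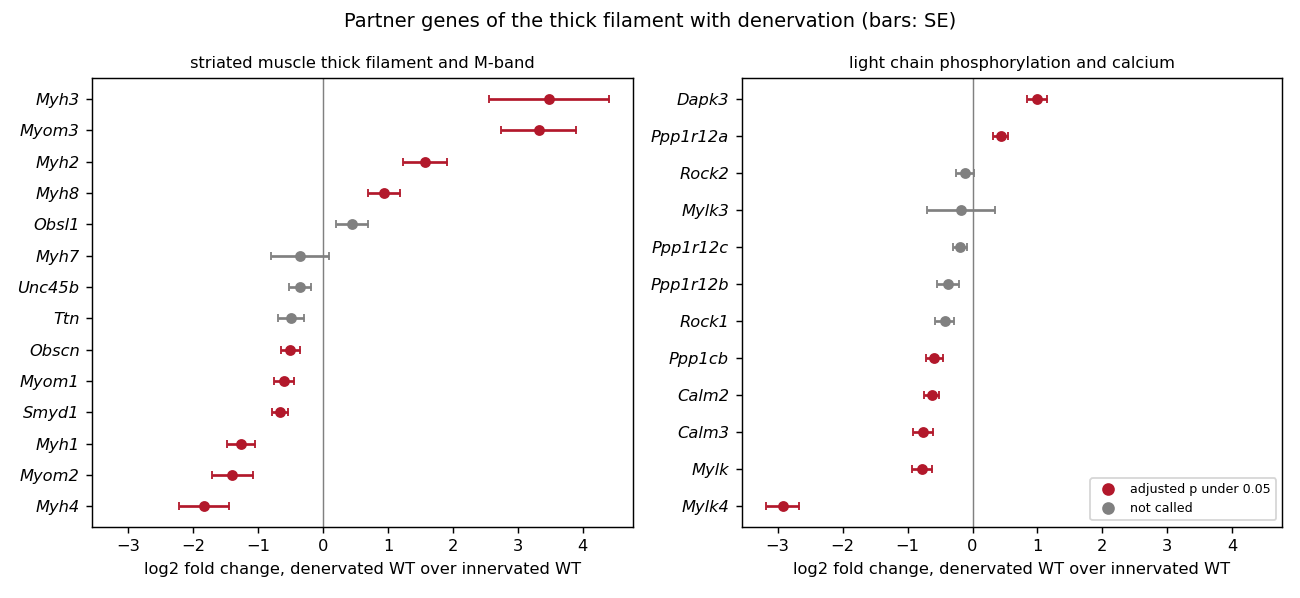
Log2 fold change with SE, denervated WT over innervated WT muscle, for 14 thick filament and M-band genes (left) and 12 genes of light chain phosphorylation and calcium binding (right); red marks an adjusted p under 0.05 in edgeR. Myh3, Myom3, Myh2 and Myh8 lie above 0, and Mylk4 lies farthest below 0 in the right panel.

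A further 8 light chain and binding protein genes were listed, of which 5 could be tested in the first set. Myl12a, a non-muscle regulatory light chain, was 6.67-fold higher with denervation (498 ± 114 CPM in denervated WT and 74.6 ± 38.0 CPM in innervated WT muscle, adjusted p = 0.000365, edgeR), and 10.7-fold higher without innervated library 2 and denervated library 1. Its near-identical neighbour Myl12b had 0.988 ± 0.199 and 1.45 ± 0.475 CPM in these groups, so how the authors' counting split the pair is uncertain. Myl9, of smooth muscle, and Myl10 fell, with log2 fold changes of -0.78 ± 0.16 and -1.40 ± 0.24. Myl6, the non-muscle essential light chain, had 203 ± 13.0 CPM in denervated WT and 204 ± 25.5 CPM in innervated WT muscle and was not called.

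Fibre type genes moved beside the members. Of 7 slow fibre genes 4 were higher with denervation and 0 lower, led by Atp2a2 (2.42-fold, adjusted p = 0.000336, edgeR) and Tnnt1 (9.46-fold, adjusted p = 0.00396, edgeR), with Myoz2 and Tnni1, named after their values were seen, the other 2. Without innervated library 2 and denervated library 1, Tnnt1 was 28.2-fold higher. The Tnni1 call was lost without denervated WT library 1 or innervated WT library 1 or 3, and Tnni1 was 18.7-fold higher without innervated library 2 and 5.38-fold higher with it. Myh7, the slow heavy chain, was low, at 0.831 ± 0.212 CPM in denervated WT and 1.05 ± 0.523 CPM in innervated WT muscle. Of 9 fast fibre genes 1 was higher (Actn3, 1.87-fold) and 7 lower, led by Myoz1 (log2 fold change -1.79 ± 0.14). The Actn3 call was lost without denervated WT library 2 or 3 or innervated WT library 2 or 3. All 4 embryonic fibre genes listed (Myh3, Myh8, Chrng and Ncam1) were higher. In the second set, Casq2, the slow and cardiac calsequestrin, was higher in NRF1 KD (log2 fold change 0.96 ± 0.19, adjusted p = 0.0117, limma) and in double KD (1.35 ± 0.19, adjusted p = 0.00729, limma) than in WT con libraries, both calls lost without WT con library 2. Of the members that slow fibres use, Myl3, Myl2 and Mybpc1 were not called with denervation. Mybpc1, at 2452 ± 110 CPM in innervated WT muscle, lay far above the 7 slow fibre genes summed there (136 to 297 CPM). Its level is therefore not read as a measure of slow fibres, nor its balance with Mybpc2 as fast against slow.

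Markers of cells other than fibres and macrophages also moved. Of 8 smooth muscle and pericyte genes 1 was higher (Des, which muscle fibres also use) and 6 lower with denervation, none was at 0, and their sum was 5096 to 7306 CPM in denervated WT and 3587 to 3910 CPM in innervated WT libraries. With library totals alone 4 of the 8 were lower, and leaving out single WT libraries left 4 to 7 lower. Of 7 endothelial genes 6 were lower, and with library totals alone 2 were. Of 7 Schwann cell genes 4 were lower. Of 4 satellite cell genes 1 was higher (Myf5), a call lost without denervated WT library 2 or 3 or innervated WT library 2 or 3. The part of these cells in the members' levels was not tested.

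The genes with the most similar profile over the 9 libraries of the first set were sought among 8649 genes that averaged 8 CPM or more, as the root mean square difference of log2 CPM after centring each gene. Mylk2 was nearest to Amd1 (0.287) and Ramp1 (0.305), and Mybpc2 to Lrrc38 (0.254) and Gpd1 (0.308). Amd1, the decarboxylase of polyamine synthesis, averaged 30.3 CPM in denervated WT and 359 CPM in innervated WT muscle, and Gpd1, cytosolic glycerol-3-phosphate dehydrogenase, 72.0 and 460 CPM. Myl4 was nearest to Kcnn3 (0.217) and Hhipl1 (0.243), and Mybph to Tiam2 (0.250) and Plekhh2 (0.307). Kcnn3, a calcium-activated potassium channel, averaged 144 CPM in denervated WT and 11.6 CPM in innervated WT muscle. Myl6b was nearest to Sirpa (0.163) and Olfm1 (0.169), and Myl3 to Hist1h4i (0.245). The flat profiles of Mylpf, Mybpc1 and Myl1 lay nearest to Ctnnbip1 (0.047), Mlx (0.067) and Chchd2 (0.087). For Myl2 the closest genes were farther off, Col5a1 (0.453) and Col1a2 (0.497), and its own profile had a root mean square of 1.03 about its mean.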

How the data were processed

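Messenger RNA libraries were made from TRIzol-extracted RNA with a SMARTER mRNA-Seq kit, per the labels' protocols. The first table holds raw counts per gene as deposited by the authors for 9 libraries. The second holds log2 values per library that the authors made with DESeq2 variance stabilisation for 8 libraries, with a mean normalised signal per gene, log2 fold changes, a Wald score and p-values of the authors' tests. Another deposited table gives the authors' log2 fold changes and p-values for the first set. Builds GRCm38 and mm10 are named in the submitters' processing notes. Aligner, counter and use of strand were not given in the sources used here.

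The transform was inverted from its smallest value of 6.84, giving normalised counts within 3.34e-07% of the deposited mean, and 100% of recovered reads came out whole within 0.05. Counts were tested with edgeR 4.0.16 (quasi-likelihood, TMM scaling, its own filter on low counts, Benjamini-Hochberg adjustment) in R 4.3.3, and the second set with limma 3.58.1 on log2(normalised count + 1) for genes with a mean of at least 10; its fold changes are on that scale. DESeq2 1.42.0, limma-voom and edgeR on recovered reads were among the alternatives. SE is of the log2 fold change in each fit. The fits were also run on simulated data in which some genes were changed by known folds. Those libraries were drawn independently, with no pairing, no overall shift in composition and no outlying library. The simulation therefore says nothing on how the fits handle these features in the real data.

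Columns of the first table name groups and not samples, so its libraries are numbered 1 to 3 in the order of the numbers in their names. Denervated and innervated WT columns carry the same numbers (127, 139 and 143). The labels do not say whether these stand for animals, and the main fits do not pair them. Of 23 labelled samples 6 had no column and were not analysed here. The members and gene lists were chosen with earlier results of these data known. All 10 members are named, with up to 2 genes per list and direction by smallest adjusted p among those called, or the 2 smallest p where none was; other names were chosen after their values were seen. Promoters came from a RefSeq table of GRCm38.p6. One gene of the phosphorylation and calcium list is not reported here.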

Additional observations from a re-analysis of the deposited data

How the results depend on the processing

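Of the alternatives tried, leaving out each library in turn gave 4 to 5 members called for denervated WT against innervated WT, 0 to 0 for PAX4 KO against denervated WT, 5 to 6 for PAX4 KO against innervated WT, 1 to 2 for NRF1 KD, 0 to 1 for double KD and 0 to 0 for double KD against NRF1 KD. The share differences ran from -50.1 to -41.5 percentage points for Mybpc2, -0.556 to -0.0789 for Myl3 and -0.0159 to -2.31e-05 for Myl2, and with innervated library 2 and denervated WT library 1 left out Myl3 turned to 0.0652. PAX4 KO against denervated WT had 2 members called with no filter. A log2 fold change of at least 1 left 0 for NRF1 KD and 0 for double KD, and fitting only the groups compared gave 2 for NRF1 KD and 0 for double KD.

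Directions turned for members that were not called, except where stated. With library totals alone, which moved the median log2 fold change of all genes to 0.33, 0.17 and 0.54 in the 3 comparisons of the first set, denervated WT against innervated WT gave Myl1 0.19 and Mylpf 0.05, PAX4 KO against denervated WT gave Mylpf 0.12, Myl3 0.12 and Myl4 0.02, and PAX4 KO against innervated WT gave Myl1 0.07, Mylpf 0.17 and Mybpc1 0.46, which was then called. Calls over all genes became 5483 higher and 1048 lower, in place of 2660 and 2549, for denervated WT, and 8333 and 1068, in place of 3520 and 2935, for PAX4 KO against innervated WT. With both doubted libraries left out Myl3 had 0.08 and, for PAX4 KO against innervated WT, Mybpc1 0.02; a mean of at least 5 CPM gave Mybpc1 0.03. For NRF1 KD, edgeR on recovered reads gave Myl1 0.02, and TMM gave Myl1 0.02 and Myl3 0.02. Leaving out single libraries gave Mylpf -0.12 to 0.02 and Myl3 -0.32 to 0.15 for PAX4 KO against denervated WT, and Mybpc1 -0.07 to 0.10 for PAX4 KO against innervated WT. For NRF1 KD it gave Myl1 -0.13 to 0.11, Mylpf -0.01 to 0.14, Myl2 -0.86 to 0.03 and Myl3 -0.37 to 0.35. For double KD it gave Myl3 -0.66 to 0.06, Myl4 -0.28 to 0.32, Mylk2 -0.20 to 0.08 and Mybpc1 -0.10 to 0.22, and against NRF1 KD Myl6b -0.02 to 0.52 and Mybpc2 -0.33 to 0.01. The causes were not tested.

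Over all genes, PAX4 KO against denervated WT had 213 calls with DESeq2, 5 with limma-voom, 456 with no filter and 169 without both doubted libraries, in place of 3. A log2 fold change of at least 1 gave 1943 and 2791 calls for the 2 comparisons with innervated WT, 808 for NRF1 KD and 253 for double KD. Fitting only the groups compared gave 260 for double KD and 76 for double KD against NRF1 KD, where a pseudocount of 0.1 or a mean of at least 100 gave 1. Libraries that share a number in columns or titles were not paired in the main fits. In WT muscle the same-number r was 0.237, 0.038 and 0.282. Each library there correlated best with its own number, so a pairing of the WT libraries remains possible. In the second set the same-number r was -0.453 to 0.373. With the replicate block, 3 members were higher and 3 lower for denervated WT, and 2538 genes were higher and 2496 lower over all 15389 tested. The added members were Myl6b (0.77, adjusted p = 0.013, edgeR) and Myl3 (-0.47, adjusted p = 0.029, edgeR). With the block NRF1 KD had 617 calls over all genes, double KD 127 with 0 members, and double KD against NRF1 KD 9. For the comparisons with PAX4 KO there was no paired fit, because its columns share no number with the other groups. Depth did not limit the fast light chains, while Myl2 rested on as few as 22 counts in a library.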
